A study of Bos taurus with 8 samples.

Results

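The pool of plasma exosomal RNA labelled grazing at 2 mo was compared with the pools of the same label at 1 and 4 mo, to see which blood-cell and tissue miRNAs stood above or below both neighbouring months at 2 mo. The members were chosen by their measured values: 231 bovine miRNAs were detected on at least 1 of the 8 arrays of the series, and 145 of them carried the scanner software's detection flag on all 3 of these arrays. The animals were adult Japanese Shorthorn steers, a beef breed, raised on grass with no grain, and the same animals were bled at each month. By the study's design, those of the grazing group were on pasture during these months, and those of the housed group ate freshly cut grass in a barn. The pools labelled grazing read as those of the housed group, as the next paragraph describes. Exosomes were pelleted from EDTA plasma by ultracentrifugation, and RNA of 3 animals was pooled for each group and month and hybridized to 1 array, 100 ng per labelling, with a single dye. There was thus 1 array per group and month and no replicate error, and an array value describes its pool and not other cattle.

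The labels of these arrays are in doubt. Their total signals were set against the raw columns of a supplementary table, and all 163 detected miRNAs of the array labelled grazing 2 mo lay within 1% of the column A-3, against at most 5 in any other column. For the arrays labelled grazing 1 and 4 mo the same held for 149 of 149 miRNAs in A-2 and 160 of 160 in A-4. The legend gives the other columns, headed G, as grazing cattle and does not name the letter A. The paper's printed composition for housed cattle at time 0 lay close to the array labelled grazing 0 mo. There miR-2478 took 33.64% of the summed signal and miR-1260b 9.48%. On the array labelled housed 0 mo they took 24.05% and 7.07%, farther from the printed shares. At 0 mo the deposited label is thus opposite to the paper's group. For 1, 2 and 4 mo, that A is the housed group remains an inference. The pools are called here by their deposited label only. The month is the same in the labels and the columns, and a comparison of 2 mo with 1 and 4 mo does not change with the name of the group.

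MiRNAs are short RNAs that pair through their 5′ seed with messenger RNAs and lower their translation or stability, and cells release some of them into plasma inside vesicles such as exosomes. Most plasma miRNAs stem from blood cells, so that the profile carries marks of each lineage. MiR-451, miR-144 and miR-486 are abundant in red cells and their precursors, miR-223 and miR-142 in granulocytes and monocytes, miR-126 in endothelium and platelets, and miR-150 in lymphocytes. Muscle-specific miRNAs such as miR-1 and miR-133a mark skeletal and heart muscle. In pooled vesicle RNA, fewer vesicles of a kind and fewer copies per vesicle cannot be told apart.

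The array probes are shown for the miRNAs on which the comparison turns, since they are what the signals measure. Each is the longest probe of its miRNA, written 5′ to 3′ with G and C in capitals, because G and C content shapes how brightly a probe binds. The first lines are miRNAs that stood above both neighbours, with their closest relatives, and the later lines are red-cell miRNAs and bright entries that stood below.
miR-130b: atGCCCtttCatCattGC
miR-130a: atGCCCttttaaCattGCa
miR-148a: aCaaaGttCtGtaGtGCaCt
miR-148b: aCaaaGttCtGtGatGCaC
miR-128: aaaGaGaCCGGttCaCtGt
miR-221: aaaCCCaGCaGaCaatG
miR-451: aaaCtCaGtaatGGtaaCG
miR-144: CtaGtaCatCatCtataCtGta
miR-486: CtCGGGGCaGCtCa
miR-185: tCaGGaaCtGCCtttCt
miR-2413: aCCGCaGtCCCCC
miR-2478: tGGtGtCaGaaGtGGG
The probes of miR-130a and miR-130b differ at 2 of the 18 bases that both cover, and those of miR-148a and miR-148b at 2 of 19, so part of the signal of such a pair may be shared. The array design places the probe of miR-130b at chr17:74100594-74100610 of UMD_3.1, that of miR-128 at chr2:62007803-62007821, that of miR-451 at chr19:20796880-20796897 and that of miR-144 at chr19:20797072-20797092, all on the minus strand. The probe of miR-221 lies at chrX:103538905-103538920 on the plus strand.

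The 2 mo array was brighter than its neighbours. In the order 1, 2 and 4 mo, the 90th percentile of the total signals was 31.2, 56.1 and 34.2, and their sum over detected miRNAs was 45507, 63558 and 51625. The percentile at 2 mo was thus 1.80 times that at 1 mo and 1.64 times that at 4 mo, but the summed signal was only 1.40 and 1.23 times as high. The brightest entry, miR-2478, took 40.2%, 31.8% and 38.5% of the sum in the same order. Dividing by this percentile gave the scaled signal, taken to log2, so a value is a level relative to the other miRNAs of the same pool. A miRNA counts here as a peak where its log2 scaled signal at 2 mo lay at least 0.5 above both 1 mo and 4 mo, and as a dip where it lay at least 0.5 below both. No test was made, since these values chose the miRNAs and no pool was measured again. The scanner software's error estimate, which covers the spots of 1 array only, gave a median error of 0.16 for log2 scaled signal at 2 mo minus the mean of 1 and 4 mo, which is called the difference here and is a log2 value.

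Of the 145 miRNAs, 6 were peaks (4.14%) and 14 were dips (9.66%). By any distance, 32 lay above both neighbours (22.1%), 63 below both (43.4%) and 50 between them (34.5%). The median difference of all 145 was -0.11, so the scaled values as a whole sat slightly low at 2 mo. Without any scaling, which adds the same amount to every miRNA of an array, the median was 0.67 and 0 of the 145 were dips. A dip is therefore a miRNA that did not share the brightness of the 2 mo array, and, miR-2413 aside, not one with a raw signal below both months, and each low position below is relative to this scale. Over the dips, the unscaled difference lay between -0.33 and 0.27, and over the peaks between 1.35 and 2.08.

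**Figure D1:**
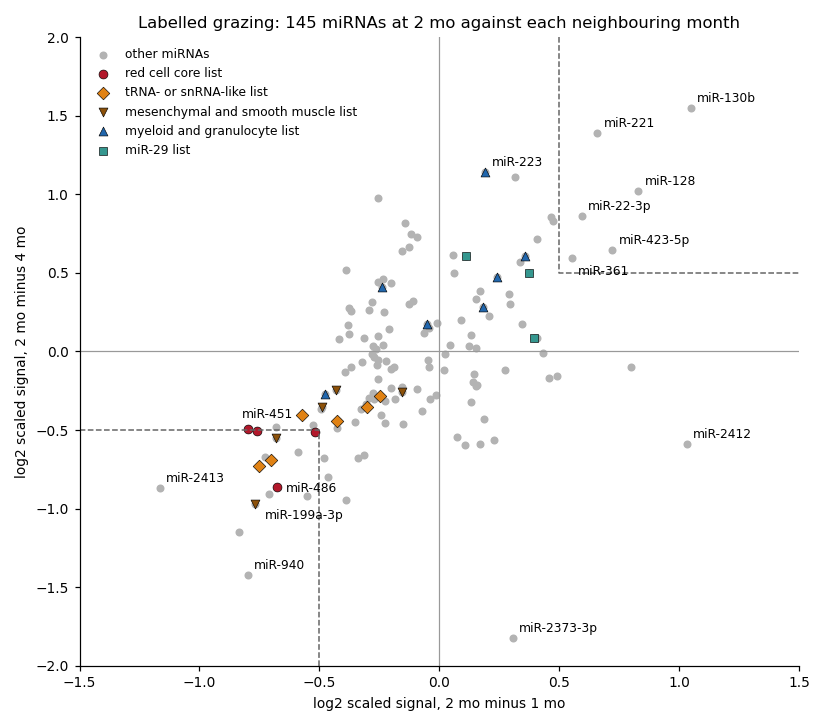
Each point is 1 of the 145 miRNAs detected on all 3 arrays labelled grazing, with the log2 scaled signal at 2 mo minus that at 1 mo on the horizontal axis and minus that at 4 mo on the vertical axis. Dashed corners mark 0.5 from both neighbours. MiR-130b lies farthest toward the upper right, and the red-cell, mesenchymal and tRNA-like entries lie at the lower left; with no scaling the median of all points moves up by 0.78.

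The peaks were miR-130b, miR-128, miR-221, miR-423-5p, miR-22-3p and miR-361. MiR-130b and miR-128 were singled out after their values were seen. MiR-130b, of a family known for restraining fat-cell formation, had raw signals of 28.5 (error estimate 2.86), 106 (8.0) and 22.1 (2.48) at 1, 2 and 4 mo, the order used from here on. Its scaled signal at 2 mo was 2.07 times that at 1 mo and 2.93 times that at 4 mo. It stood farther above both neighbours than any other of the 145.

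MiR-128, best known from brain, had raw signals of 15.1 (2.27), 48.2 (4.18) and 14.5 (2.17), and its scaled signal at 2 mo was 1.78 and 2.03 times those of the neighbours. MiR-221, a miRNA of endothelium and blood cells that targets the KIT receptor, had raw signals of 22.5 (2.41), 63.9 (5.43) and 14.9 (1.99). Its scaled signal at 2 mo was 1.58 times that at 1 mo and 2.62 times that at 4 mo, so the array at 1 mo lay between the others. MiR-222 is the neighbouring gene of miR-221 in the order of ARS-UCD2.0, and its difference of 0.31 had an error estimate of 0.52, too wide to place it.

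MiR-423-5p, a broadly expressed miRNA, had raw signals of 36.2 (3.33), 107.4 (8.20) and 41.8 (3.67), or scaled signals of 1.16, 1.91 and 1.22. MiR-361 had scaled signals of 1.003, 1.47 and 0.97, with a difference of 0.57 and an error estimate of 0.15. For both of these the neighbouring months were almost level. MiR-22-3p, studied in heart and blood formation, was dim, with raw signals of 8.89, 24.2 and 8.10, and its distance from 1 mo, 0.60, was less than 2 times its error estimate of 0.40. The other 5 peaks stood off both neighbours by more than 2 times the error estimate. All 12 measurable probes of the 6 peaks gave a difference above 0. These probes make up the total signals that chose the peaks, so their common sign is no separate support. After normexp background correction, which compresses dim signals, 5 of the 6 still lay above both months but 1 by at least 0.5, and miR-22-3p turned to -0.054.

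Just below the threshold lay miR-148a and miR-148b, at 0.47 each above the nearer month, and the peak nearest to it was miR-361 at 0.55. MiR-148a, abundant in liver and known to target the DNA methyltransferase DNMT1, had raw signals of 32.4 (3.05), 80.9 (6.16) and 27.8 (2.73), and scaled signals of 1.04, 1.44 and 0.81. Its relative miR-148b had scaled signals of 0.42, 0.58 and 0.32. MiR-130a, the relative of miR-130b, lay above both neighbours as well, by 0.29 and 0.36, with a difference of 0.33 (error estimate 0.18).

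**Figure D2:**
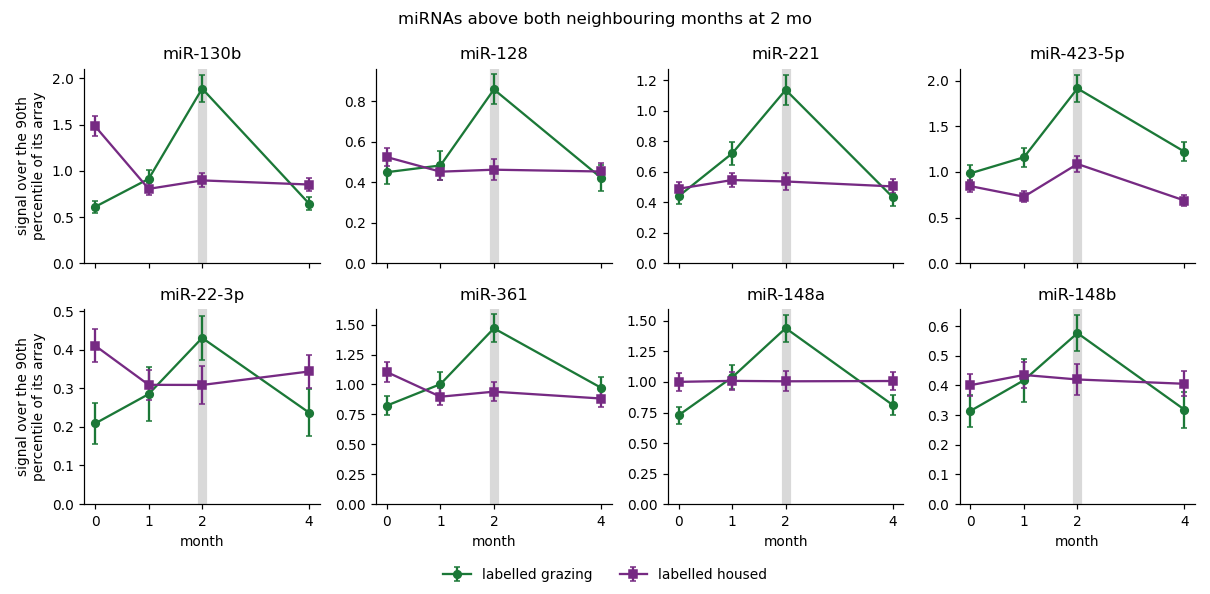
Scaled signal (total signal over the 90th percentile of its array) of the 6 peaks and of miR-148a and miR-148b by month, with arrays labelled grazing as green circles and arrays labelled housed as purple squares; bars are the scanner software's error estimates of 1 array. In green, 2 mo is the highest month in every panel, whereas in purple the later months are nearly level except for miR-423-5p, which is also highest at 2 mo.

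All 4 of the core red-cell miRNAs lay below both neighbours at 2 mo in scaled signal, and 3 of them were dips. The shares over all 145 were 43.4% and 9.66%. However, only 1 of the 4 lay below both with the 75th percentile as the scale, and 0 with no scaling. The dip calls depended on the scale as well, with 2 of the 4 after quantile normalization and 1 with the median of the 145 or with mean spot signals. None was left with let-7g, the summed signal, the 75th percentile, no scaling or normexp correction. All 4 were dips in the authors' deposited normalized values, and also with 4 mo left out. MiR-451, the most abundant of them and a miRNA that matures without Dicer, had scaled signals of 22.3, 13.2 and 18.6. MiR-144, which is transcribed with it and is listed as its neighbour in ARS-UCD2.0, had 1.62, 0.93 and 1.31. MiR-451 lay 0.50 from the nearer month and miR-144 0.49, so the threshold falls between this pair, the last dip and the next miRNA outside.

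MiR-486 had scaled signals of 3.05, 1.91 and 3.47, and miR-185 1.31, 0.92 and 1.31. The difference was -0.63 for miR-451 (error estimate 0.17), -0.65 for miR-144 (0.14), -0.77 for miR-486 (0.13) and -0.51 for miR-185 (0.15). The median of these 4 was -0.64, against -0.11 over all 145. The raw signals were close to level, with 697 (67.3), 739 (71.5) and 638 (61.8) for miR-451 and 95.3 (7.22), 107.1 (8.12) and 119 (8.85) for miR-486. The ratio of miR-451 to miR-23a, used in blood work as a sign of red-cell lysis, does not depend on the scaling. On the log2 scale it was 1.63, 0.92 and 1.59, with 1.92 at 0 mo of the same label. Labelled housed it was 1.75, 2.16 and 2.51. Whether red-cell lysis differed between the plasma samples was not tested.

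MiR-92a, miR-16a and miR-16b, which red cells share with many other cells, stayed closer to the rest, with differences of 0.05, -0.23 and -0.15. The wider list of 8 red-cell miRNAs had 7 members detected, 6 of them below both neighbours (43.4% over all 145), with a median of -0.51.

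The detected miRNAs on the fibroblast and smooth-muscle list also lay low, though not all of them are particular to these cells. Of the 10 on the list 5 were detected on all 3 arrays. All 5 lay below both neighbours and 2 were dips, against 43.4% and 9.66% of all 145. MiR-199a-3p had raw signals of 25.4 (2.76), 26.8 (2.94) and 32 (3.06), or scaled signals of 0.81, 0.48 and 0.94, and a difference of -0.87 (error estimate 0.19). MiR-145 was near the detection limit, with raw signals of 6.02, 6.76 and 6.04, and its difference of -0.61 was close to its error estimate of 0.58. The remaining 3 were miR-125b at -0.42, miR-100 at -0.34 and miR-99a-5p at -0.21. MiR-199b was the single miRNA detected at 1 and 4 mo but not at 2 mo, but its raw signals of 6.69 (2.02), 6.29 (2.19) and 7.86 (1.97) were level within their errors.

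Among liver and gut miRNAs, the related miR-192 and miR-215 were both dips. MiR-215 had scaled signals of 1.45, 0.96 and 1.5, with a difference of -0.61 (error estimate 0.17). MiR-192 was dim, with raw signals of 7.61, 8.26 and 8.01 and a difference of -0.70 (0.35). The liver list did not move as 1 group, since miR-148a lay at 0.65 while miR-101 and miR-378b lay at -0.12 each, and the median of its 4 detected members was -0.12. Both arms of miR-126, the endothelial and platelet miRNA, lay below both months, miR-126-3p by a difference of -0.46 (0.13) and miR-126-5p by -0.43 (0.15).

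**Figure D3:**
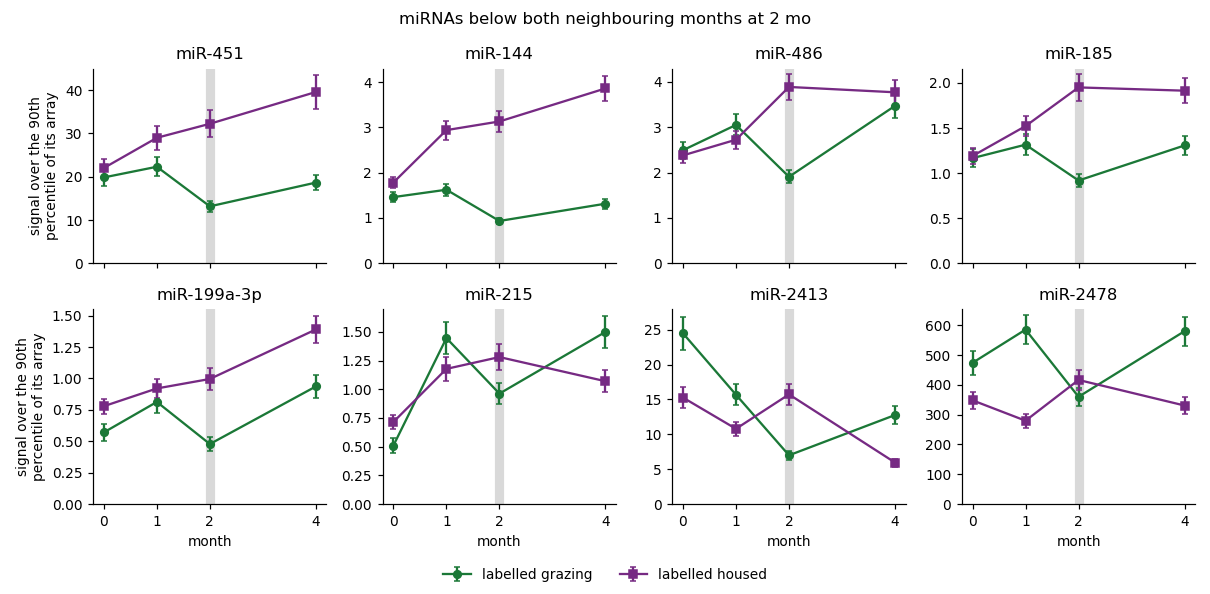
Scaled signal of 8 miRNAs that lay below both neighbours at 2 mo, by month, with symbols, bars and axes as in the plot of the peaks. MiR-451, miR-144, miR-486 and miR-185 are lowest at 2 mo in green on this scale, not in raw signal, and of the later months miR-2413 and miR-2478 are lowest at 2 mo in green and highest at 2 mo in purple.

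The listed bright entries, which resemble fragments of transfer or other small RNAs or have GC-rich probes, lay low as a set. All 6 on the list were detected and lay below both neighbours, and 2 were dips, against 43.4% and 9.66% of all 145. MiR-2478 had raw signals of 18281 (1536), 20205 (1701) and 19858 (1666), which lay within the error of each other, and scaled signals of 585, 360 and 580. MiR-1260b likewise had 5214 (438), 5560 (467) and 5607 (469), and scaled signals of 167, 99.0 and 164. Their differences were -0.70 and -0.74, with an error estimate of 0.15 each. After normexp correction the median of these 6 was -0.0077 from that of all 145, and the low position was lost. MiR-4286 lay at -0.49, miR-1246 at -0.43, miR-1777a at -0.33 and miR-1777b at -0.27. Over the 52 miRNAs with a probe GC share of 60% or more the median was -0.10, against -0.11 over all 145. GC-rich entries in general thus did not lie low.

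MiR-2413 had the lowest position of all relative to its nearer month, with raw signals of 490 (47.5), 393 (38.1) and 437 (42.2), scaled signals of 15.7, 6.99 and 12.8 and a difference of -1.02 (error estimate 0.17). The other dips, named after their values were seen, were miR-2304, miR-940, miR-574 and miR-2382-3p, all dim, with raw signals between 7.22 and 22.9. Of the 14 dips, 10 stood off both neighbours by more than 2 times the error estimate. MiR-940, miR-2382-3p, miR-192 and miR-145 did not. MiR-2412, the third brightest entry at 2 mo, was no dip, since its scaled signals were 42.5, 86.8 and 131.

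MiRNAs of granulocytes and monocytes lay mostly above or between the neighbouring months, and none passed 0.5 from both. Of the 7 detected miRNAs on the myeloid list 4 lay above both neighbours, 1 below and 2 between, with a median of 0.23 and 0 peaks or dips. The share above both was 22.1% over all 145. MiR-223, the main miRNA of granulocytes, had raw signals of 905 (68.5), 1859 (140) and 513 (38.5), and scaled signals of 29.0, 33.1 and 15.0. It exceeded 4 mo by 1.14 and 1 mo by only 0.19, close to the error estimate of 0.15. The 1 and 2 mo pools were thus both far above the 4 mo pool.

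MiR-24-3p, made from clusters with miR-23 and miR-27, lay above both months, by 0.36 and 0.61, each past 2 times its error estimate of 0.14. Its cluster mate miR-27a-3p was above by 0.24 and 0.47, and miR-23a lay between both months, at 0.06. MiR-142-5p, found throughout white cells, had a difference of 0.23 (0.13), and miR-21-5p of 0.09 (0.11). MiR-338 alone of the myeloid list lay below both months, at -0.37 (0.17). The platelet list held 10 detected members with a median of 0.20. They ran from -0.46 for miR-126-3p to 1.02 for miR-221, so that list held miRNAs on both sides.

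Lymphocyte miRNAs showed no common direction. MiR-150 had scaled signals of 0.83, 0.72 and 0.85, a difference of -0.22 with an error estimate of 0.18. MiR-155 lay at -0.14 (0.23) and miR-342 at -0.43 (0.19). The miR-29 family, which lymphocytes share with many tissues and which targets collagens, lay above both months for all 3 detected members, with differences of 0.24 for miR-29a, 0.36 for miR-29b and 0.44 for miR-29c and error estimates of 0.13 to 0.15. Of these miR-29c alone stood off both months by more than 2 times the error estimate. The share above both was 22.1% over all 145.

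Members of 1 transcript did not all share a position. In ARS-UCD2.0 the genes of miR-19a and miR-19b lie between those of miR-18a and miR-92a, in the miR-17-92 cluster, which drives cell growth. MiR-19a had a difference of 0.56 (error estimate 0.13) and miR-19b of 0.45 (0.13), and both lay above both months. MiR-17-5p at 0.12 (0.15), miR-20a at 0.09 (0.13), miR-18a at 0.24 (0.32) and miR-92a at 0.05 (0.13) lay between the months. The probes of miR-19a and miR-19b differ at 1 of 20 bases, so their signals are not independent. In the let-7 family, which restrains growth, all 9 members were detected, 5 lay below both months and 4 between, within a range of -0.32 to 0.11. These shares were 43.4% and 34.5% over all 145. Let-7g, the reference of the study's qRT-PCR, had scaled signals of 5.61, 4.88 and 5.26 and a difference of -0.16 (0.13).

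The miR-30 family had a median of -0.10, with miR-30a-5p and miR-30f lowest at -0.58 each. The median was -0.19 over 6 members of the miR-15/16 family, -0.22 over 6 endothelial miRNAs, 0.06 over 7 of the miR-23/27/24 and miR-26 list, 0.11 over 11 of the miR-17-92 clusters, 0.04 over miR-103 and miR-107, and -0.08 over 2 miRNAs made without Drosha. Over the 7 lymphocyte members it was -0.05. Of the 7 muscle-specific miRNAs, 0 were detected on all 3 arrays.

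**Figure D4:**
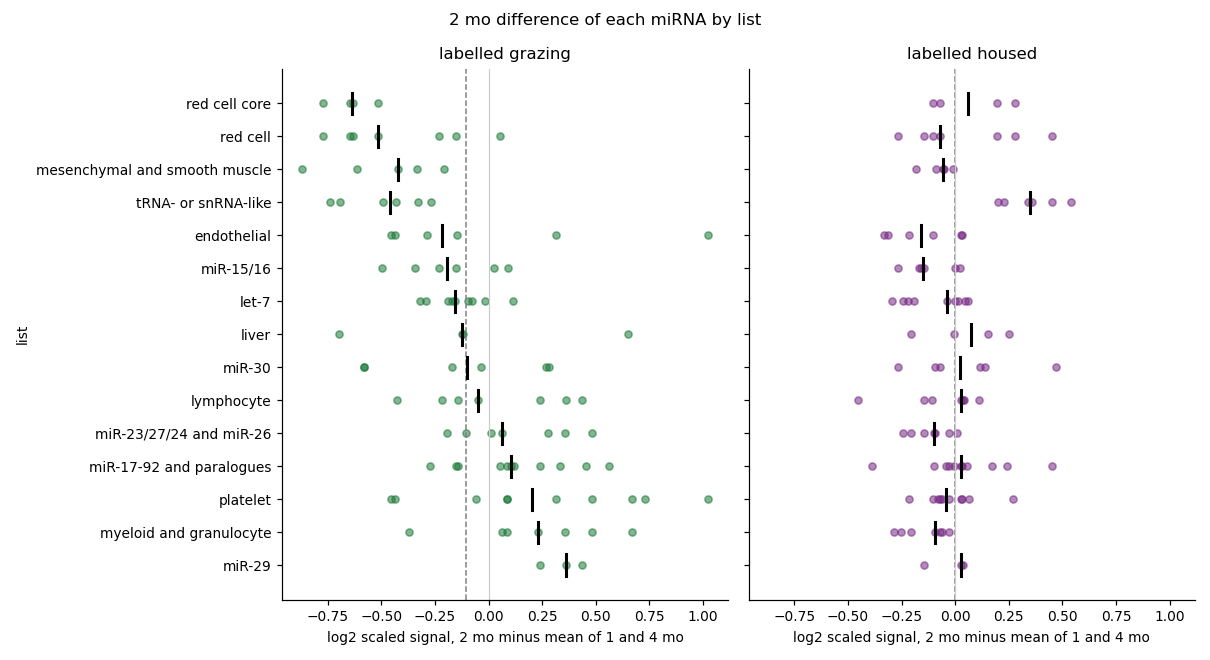
Difference of log2 scaled signal at 2 mo from the mean of 1 and 4 mo, 1 point per miRNA and 1 row per list, for the arrays labelled grazing (left) and housed (right); black bars are list medians and dashed lines the median of all miRNAs. On the left the medians run from -0.64 for the core red-cell list to 0.36 for the miR-29 family, and on the right the tRNA-like list has the highest, 0.35. A miRNA can stand in more than 1 list.

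The panel of miRNAs followed by qRT-PCR had 21 entries, of which 20 were detected on all 3 arrays. By the same rule 2 were peaks, miR-221 and miR-361, and 2 were dips, miR-451 and miR-486. Of the 20, 7 lay above both months, 9 below and 4 between, with a median of 0.01. Over all 145 the shares were 4.14% peaks, 9.66% dips, 22.1% above both and 43.4% below both, so the panel's dips and low positions were about as frequent as in the whole set. MiR-30d and miR-425-5p were level between 1 and 2 mo but exceeded 4 mo by 0.66 and 0.73. MiR-320a lay at 0.08 (error estimate 0.18), miR-103 at -0.06 (0.13), miR-2888 at 0.08 (0.13) and miR-1249 at -0.17 (0.33), each within its error. The study picked this list on these arrays, so its counts are no independent evidence.

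The arrays labelled housed were not used to choose the miRNAs, and 144 of the 145 were detected on those of 1, 2 and 4 mo. There the 2 mo array was dimmer than its neighbours, with 90th percentiles of 83.2, 50.7 and 82.5. The scale thus raised its values, where it lowered those of the 2 mo array labelled grazing. There the same rule gave 9 peaks (6.25%) and 2 dips (1.39%). MiR-423-5p was the single miRNA that peaked in both sets, with scaled signals of 0.73, 1.09 and 0.69 labelled housed. For the other 5 peaks the difference labelled housed lay between -0.08 and 0.11, within its error estimate for each. Thus miR-130b had 0.81, 0.90 and 0.85, miR-221 0.55, 0.54 and 0.50, and miR-128 0.45, 0.46 and 0.45.

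Of the 13 dips measured there, 0 were dips labelled housed, 3 had the same sign and 10 the opposite one. For 3 the call was opposite: miR-2413, miR-574 and miR-2382-3p were peaks labelled housed. The 6 tRNA-like or GC-rich entries were all above the mean of 1 and 4 mo there, by 0.20 to 0.54, where they were below it by 0.27 to 0.74 labelled grazing. The core red-cell miRNAs lay between -0.11 and 0.28, with a median of 0.06. Over all 144 the sign was shared by 67 (46.5%), and Spearman's rho of the differences was -0.18, given as a description, as the points share arrays, slide rows and probes and are not independent.

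**Figure D5:**
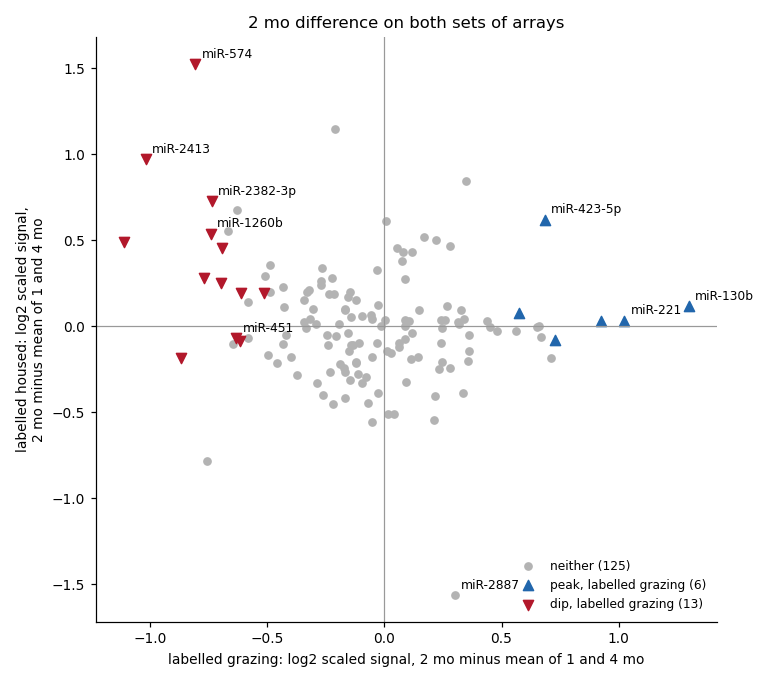
Difference of log2 scaled signal at 2 mo from the mean of 1 and 4 mo for 144 miRNAs, labelled grazing on the horizontal axis and labelled housed on the vertical axis. Of the peaks labelled grazing (blue) miR-423-5p alone is well above 0 on the vertical axis, and most dips (red) are at or above 0 there.

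The 0 mo array of the same label was not used by the rule, but a difference from it holds the 2 mo value that chose the peaks and dips, so it is given as a description only. The 6 peaks lay from 0.84, for miR-361, to 1.63, for miR-130b, above 0 mo, and of all 144 miRNAs detected there 28 (19.4%) lay at least 0.5 above it and 29 (20.1%) at least 0.5 below. At 4 mo, miR-130b, miR-128 and miR-221 lay 0.08, -0.09 and -0.02 from 0 mo. Of the 13 dips detected at 0 mo, 11 lay below it at 2 mo by any distance, and 5 by at least 0.5. The median of all 144 lay 0.01 above 0 mo. MiR-451 lay at -0.59 and miR-144 at -0.64 from 0 mo. MiR-215 and miR-192 were the exceptions, above 0 mo at 2 mo by 0.92 and 0.35 and by more at 1 and 4 mo. Over all members, the SD of the log2 differences from 0 mo was 0.63, 0.67 and 0.40. Between the months of this label it was 0.39 from 1 to 2 mo, 0.54 from 2 to 4 mo and 0.46 from 1 to 4 mo. The median distance was 0.28, 0.35 and 0.26 for these pairs, so the array nearest to 1 mo depends on the measure.

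A further 8 miRNAs carried the detection flag at 2 mo alone of the 3 arrays and are outside the 145. MiR-6529 had raw signals of 4.20 (error estimate 1.98), 21.1 (2.61) and 3.80 (1.89). Set at each neighbouring month against the higher of its own scaled signal and the lowest detected one there, its scaled signal at 2 mo was 2.79 times as high as at 1 mo and 3.29 times as high as at 4 mo. The same ratios were 1.91 and 1.80 for miR-345-3p, 1.24 and 1.14 for miR-484, and 1.06 and 1.42 for miR-328. For miR-1247-3p they were 2.75 and 1.25, and its raw signal at 4 mo was 8.12 (1.95), against 16.6 (2.46) at 2 mo. MiR-194, which shares a transcript with miR-192, miR-181b and miR-6530 were not above what the dimmer arrays could have detected.

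Probe composition was set beside these differences. The 6 peaks had probes with GC shares of 44.4% to 56.3%, the 14 dips of 36.8% to 90.9%, and the median of all 145 was 52.6%. Across the 145 miRNAs Spearman's rho of GC share and difference was -0.10, and labelled housed it was 0.34 over 144, both given as descriptions. All 3 arrays lay in 1 column of 1 slide, with each month in a row of its own that it shared with the other label, so that month and slide row cannot be told apart.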

How the data were processed

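Total signals of the 8 arrays were taken from the scanner files that the authors deposited (Agilent Feature Extraction 10.7.3.1), which hold background-subtracted intensity values not normalized between arrays. The custom design follows miRBase release 19 and UMD_3.1. The authors also deposited a series table with a ratio of signal to a factor of the array, linear and not centred; the set behind its percentile is unknown. Its column medians lay between 0.000664 and 0.00257, and 730 of its 743 names matched. It served as an alternative.

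Total signals were scaled per array, to the 90th percentile of all bovine miRNAs, and taken to log2, with no floor, since the 145 miRNAs were detected on all 3 arrays. Peaks and dips lay at least 0.5 from both neighbouring months. Errors were propagated from the scanner software's estimates; 0 spots were saturated. In simulated data for 145 miRNAs, 20 of 20 log2 changes of 1, larger than the threshold of 0.5, were recovered with 0 false calls. The simulated noise was smaller than the spread between these arrays, so this shows only that the rule runs as written. How often the rule gives a false call on the arrays themselves was not tested.

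The members and the 19 lists were chosen with earlier results of these data known. Named are the 8 farthest above and below with raw signals above 30 on all 3 arrays, called list members, the study's qRT-PCR panel, the pair of the red-cell ratio and the 5 brightest at 2 mo. Groups are the deposited labels. Mature sequences and qRT-PCR values were not used here. Alternatives were 6 scalings, 3 other signals, 2 filters, a floor, 3 thresholds and leaving out a neighbouring month. Python 3.11.15, numpy 2.4.6, pandas 2.3.3, scipy 1.17.1, R 4.3.3 and limma 3.58.1 (normexp, offset 50) were used.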

Additional observations from a re-analysis of the deposited data

Results flagged for a closer look

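MiR-2413, miR-574 and miR-2382-3p lay on opposite sides at 2 mo under the 2 labels in scaled signal, past 0.5 from both months each time. The 2 mo array was brighter than its neighbours labelled grazing and dimmer labelled housed, so the scale moved the labels in opposite directions. In raw signal miR-2413 alone lay below both months labelled grazing, and miR-574 alone above both labelled housed. The difference labelled grazing was -1.02 for miR-2413, -0.81 for miR-574 and -0.74 for miR-2382-3p, and labelled housed it was 0.97, 1.52 and 0.73. With 1 array per label and month, the difference between the labels was not tested. No group held 4 or more arrays, so no array was compared with others of its group.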

How the results depend on the processing

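With the 75th percentile as the scale there were 21 peaks and 2 dips, with the summed signal 22 and 0, with let-7g 13 and 7, after quantile normalization 10 and 9, and with no scaling 77 and 0. These scales moved the median difference of all 145 miRNAs by 0.45, 0.39, 0.16, 0.10 and 0.78. All but quantile normalization add 1 amount per array and leave the order of the differences as it was. After quantile normalization all 6 peaks lay above the median and 12 of the 14 dips below it. Normexp correction gave 7 peaks, 1 of them shared, and 1 dip. The authors' table gave 6 peaks, 4 of them shared, and 22 dips. Among miRNAs well above background there were 3 peaks and 10 dips, and with raw signals above 30 there were 2 and 7. A threshold of 0.3 gave 13 and 32, a threshold of 1 gave 1 and 0, and 2 times the error estimate gave 10 peaks. Without grazing 4 mo there were 8 peaks and 18 dips, and without grazing 1 mo 23 and 25. Scaling to the median of the 145, the mean spot signal and a floor kept both counts within 1.5 times.

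With no scaling the difference turned to 0.040 for miR-1260b, 0.17 for miR-145, 0.27 for miR-185, 0.081 for miR-192, 0.17 for miR-215, 0.085 for miR-2478, 0.15 for miR-451 and 0.0093 for miR-486, and after normexp correction to -0.054 for miR-22-3p. The share with the same sign labelled housed was 24.3% with the 75th percentile, 22.9% with the summed signal, 3.47% with no scaling and 32.6% after normexp correction. With no scaling, 5 of the 145 had a difference below 0 labelled grazing, where the 2 mo array was brighter than its neighbours. Labelled housed it was dimmer, so the unscaled share cannot be told apart from array brightness. The rank relation with GC share ran from -0.27 to 0.14 with 1 neighbouring month left out.

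Relative to the median of all 145, list medians after normexp correction were -0.18 for red cell, -0.23 for its core, 0.61 for myeloid, 0.16 for platelet, 0.21 for let-7, 0.41 for miR-23/27/24 and -0.0077 for tRNA-like entries. After quantile normalization they were 0.31 for miR-29 and -0.089 for tRNA-like entries. Well above background they were 0.36 for lymphocyte, -0.52 for mesenchymal and 0.39 for liver, and with raw signals above 30 they were 0.14 for platelet, 0.42 for lymphocyte and -0.31 for endothelial. The authors' table gave 0.32 for lymphocyte. With 1 neighbouring month left out they ran from 0.12 to 0.61 for platelet, 0.061 to 0.41 for miR-17-92, -0.18 to 0.30 for Drosha-independent, 0.37 to 0.51 for myeloid, 0.14 to 0.35 for miR-23/27/24 and 0.048 to 0.32 for miR-103 with miR-107. The cause of these shifts was not tested. No paired analysis was possible because each group had 1 array.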
